A study of Mus musculus with 6 samples.

Results

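The transcripts described here are those of miRNA genes: the short hairpin precursors from which miRNAs are cut, and the longer non-coding host genes whose names end in "hg". They were taken from gene-level RNA-seq counts of the most rostral telencephalon of mouse embryos at E11.5. A gene row was included when its name began with Mir followed by a number or let7 and its raw counts summed to 20 or more over all libraries. Of 55471 gene rows, 1193 carried such a name, 423 had at least 1 count and 92 reached the minimum, 81 of them hairpin rows and 11 host gene rows. The minimum used the counts themselves, so the level of a row is described and not tested.

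Control embryos carried floxed Dicer alleles (Dicer F/F) without Cre and are called WT in the genotype label. Rx-Dicer embryos (Rx-Cre;Dicer F/F) carried the same alleles with a Cre recombinase under Rx regulatory sequence. That driver recombines most in the rostral and ventral telencephalon and less in the neocortex, so the dissected tissue can hold cells with intact Dicer. The floxed allele was kept on C57BL/6 and the Cre line on CD1. Each genotype had 3 samples (n = 3), and the labels do not say whether a sample was a single embryo or a pool, so p-values measure only the spread between these samples. Total counts per sample ran from 34471501 to 48373468. Counts in the Dicer1 row did not separate the genotypes, their log2 fold change (Rx-Dicer over control, here and below) being -0.26 ± 0.17 (SE, adjusted p = 0.567, DESeq2). The library Rx-Dicer 2 held 7002 normalised Dicer1 counts, within the control range of 6270 to 7070, against 4777 and 4644 in Rx-Dicer 1 and 3. Without Rx-Dicer 2 the change was -0.47 and was called, at an adjusted p of 0.000881. The row counts reads from the whole gene and not from the floxed segment alone. Rx-Dicer 2 also had the largest share of reads outside annotated exons on the counted strand, 13.2%, against 8.15 to 10.5% in the other libraries. Markers of telencephalic progenitors were abundant in every library, at a summed 1276 to 1625 counts per 1e6 counts on genes (CPM) over 8 genes, of which Six3 was called higher (1.27 ± 0.22) and Pax6 lower (-0.43 ± 0.12) in Rx-Dicer samples.

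A miRNA gene is first transcribed as a long primary transcript. The Drosha and Dgcr8 complex cuts the hairpin out of it in the nucleus, and Dicer then cuts the exported hairpin into the mature duplex, a strand of which guides Argonaute to messages that pair with its seed. Dicer therefore acts after the primary transcripts, and the mature miRNAs are too short to be captured in these libraries. The hairpin rows cover the hairpin stretch, and their counts do not tell cut from uncut hairpins. In the embryonic forebrain miR-9 and miR-124 are known as neural miRNAs, let-7 and miR-125 as miRNAs that rise as development proceeds, and the miR-17-92 cluster as a promoter of proliferation.

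The mature sequences of the miRNAs whose genes carry the main results are given first. They are reference sequences (RefSeq, GRCm38.p6), 5′ to 3′, with the seed, bases 2 to 8, in capitals. Of the 81 hairpin rows, 75 matched an entry. Mir9-1, Mir9-2 and Mir9-3 encode the same miR-9-5p, and their host rows are compared below:
miR-9-5p: uCUUUGGUuaucuagcuguauga
Members of the let-7 family share a seed and differ in later bases, and are encoded at many loci:
let-7a-5p: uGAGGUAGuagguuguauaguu
let-7c-5p: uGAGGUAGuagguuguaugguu
let-7e-5p: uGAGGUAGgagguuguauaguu
let-7i-5p: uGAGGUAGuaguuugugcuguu
The miRNAs that share primary transcripts with let-7 have seeds of their own:
miR-99a-5p: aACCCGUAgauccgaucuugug
miR-100-5p: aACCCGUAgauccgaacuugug
miR-125b-5p: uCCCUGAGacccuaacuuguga
The exons of Mir17hg hold miRNAs of 4 seeds, of which miR-17 with miR-20a and miR-19a with miR-19b each share a seed:
miR-17-5p: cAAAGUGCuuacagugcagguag
miR-20a-5p: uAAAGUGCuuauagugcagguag
miR-18a-5p: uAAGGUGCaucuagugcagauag
miR-19a-3p: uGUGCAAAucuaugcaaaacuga
miR-19b-3p: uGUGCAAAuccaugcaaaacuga
miR-92a-3p: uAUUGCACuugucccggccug
Mir135a-1 and Mir135a-2 encode the same miR-135a-5p from different chromosomes:
miR-135a-5p: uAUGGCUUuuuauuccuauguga

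Where a hairpin lies decided whether its row could be counted. Reads that overlap 2 gene rows on a strand are assigned to neither by HTSeq. All 187 hairpin rows that lie wholly within an exon of another gene on the same strand accordingly had 0 counts, and they include Mir17, Mir18, Mir19a, Mir20a, Mir92-1, Mir9-2, Mir124a-1, Mirlet7a-1, Mirlet7b, Mirlet7d and Mirlet7i. For these miRNAs a count of 0 says nothing of the locus, and the host row is the measure of the primary transcript. Of 556 hairpin rows in a same-strand intron, 49 reached the minimum and 288 had no count. Of the others, 16 intergenic rows (7.34%), 10 of 131 rows that only oppose a gene on the other strand, and 6 of 88 rows that overlap an exon in part reached it.

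**Figure D1:**
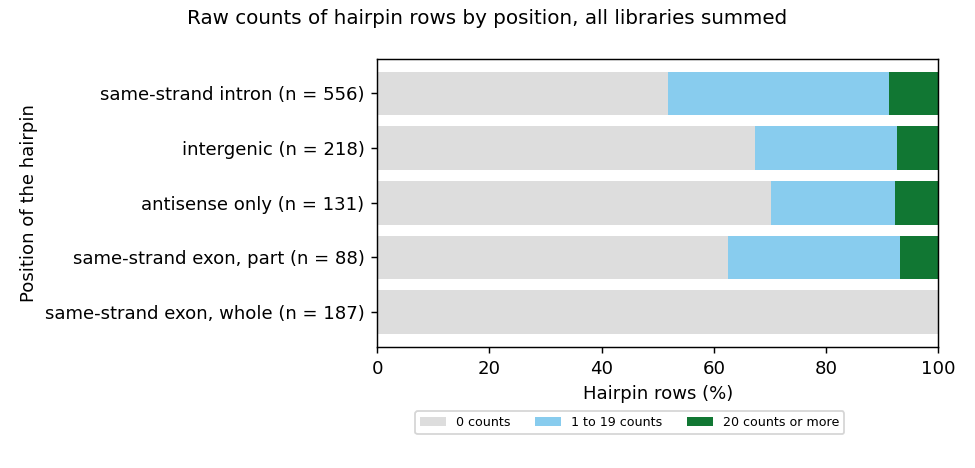
Share of hairpin rows (%) with 0, with 1 to 19 and with 20 or more raw counts over all libraries, by the position of the hairpin relative to other annotated genes. All 187 rows wholly inside a same-strand exon were at 0, and 49 of the 556 intronic rows reached 20.

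Hairpin rows held few reads. Their median raw sum over the 6 samples was 33 and the highest 2100, while the 11 host rows took 89.2% of all 93361 counts and the first 3 host rows 72.8%. The rows nearest the minimum show how little it asked for: Mir8105, Mir540 and Mir1251 were at 20 counts, Mir6960 at 19, and Mir1938, Mir6352, Mir6941, Mir6993 and Mir7089 at 18. In control samples 19 of the 92 rows had under 10 counts in all, and in Rx-Dicer samples 5 rows did. These raw counts were not scaled for depth, and the share over all gene rows was not computed. No difference between genotypes is read from them.

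Levels of the host rows are compared per length, as CPM per kilobase of exon, with the full exon length as divisor. Reads in exon stretches shared with another same-strand row were not counted, as for the hairpins in the exons of Mir17hg. Hosts with such stretches are therefore set too low, to a degree that was not measured, and their order is approximate. On that scale Mir9-3hg, a host of miR-9, was highest of the 11 host rows in controls at 24.1 ± 4.30 (SD, n = 3), ahead of Mir124-2hg, a host of miR-124, at 9.42 ± 0.531. Mir17hg, the host of the miR-17-92 cluster, followed at 6.45 ± 1.14, Mir100hg, whose span holds Mir100, Mirlet7a-2 and Mir125b-1, at 5.03 ± 0.573, and Mir670hg, whose span holds Mir670 and Mir129-2, at 4.10 ± 0.639. Among these last 3, neighbours differed by less than the sum of their SDs. Mir124a-1hg stood at 2.86 ± 0.632, and Mir142hg, Mir22hg, Mir99ahg, Mir181a-1hg and Mir155hg were all below 1, at 0.952, 0.717, 0.373, 0.245 and 0.118.

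To ask whether miRNA gene transcripts differ without Dicer, a DESeq2 Wald test was run across all gene rows. Calls needed an adjusted p under 0.05 and the fold minimum stated with the methods. DESeq2 tested 31 of the 92 rows, 10 host rows and 21 hairpin rows, and called 1 of them, Mir9-3hg, which was lower in Rx-Dicer samples. That is 3.23% of the tested rows, against 2.93% of all 17128 tested rows and 1.18% for lower calls. The median log2 fold change was 0.16 over the tested miRNA rows and -0.00087 over all tested rows. At an unadjusted p under 0.05 there were 4 miRNA rows, against 13.1% of all tested rows. The 61 other rows had a mean of at most 12.7 normalised counts and were left without an adjusted p by the filter on low means. Their standard errors ran from 0.67 to 1.58 on the log2 scale, with a median of 1.17, so a doubling was not detectable there at this depth.

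**Figure D2:**
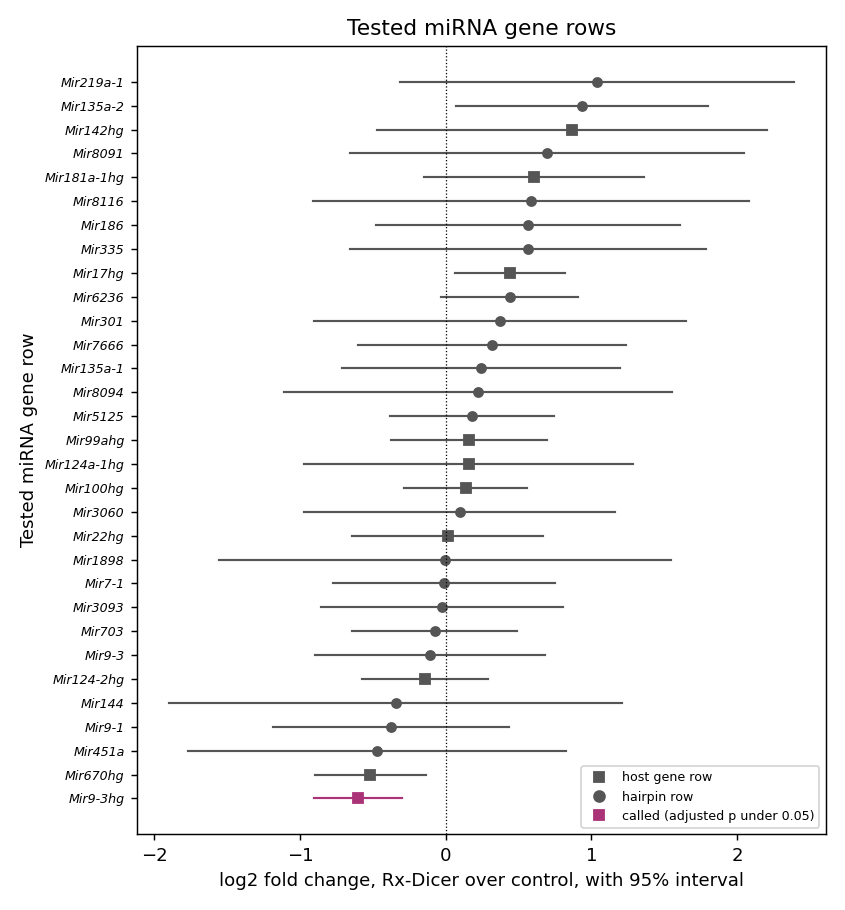
log2 fold change (Rx-Dicer over control) of the 31 tested miRNA gene rows with 95% Wald intervals; squares are host rows, circles hairpin rows. Only Mir9-3hg, at -0.61, was called, and the interval also leaves 0 out for Mir670hg, Mir17hg and Mir135a-2.

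Mir9-3hg (ENSMUSG00000097023, GRCm38 chromosome 7, 79500026 to 79534403, plus strand) is the host of a copy of miR-9, which in the forebrain acts in progenitors and differentiating neurons. It held 4847, 5078 and 3507 normalised counts in controls and 2975, 3026 and 2827 in the Rx-Dicer samples. Every Rx-Dicer value was below every control value, and the Rx-Dicer values lay close together. The means were 4477 ± 848 and 2943 ± 103 (SD, n = 3), which is 0.657-fold and on the log2 scale -0.61 ± 0.15 (SE, adjusted p = 0.00803, DESeq2). The call did not hold with edgeR's quasi-likelihood test, where the adjusted p was 0.172 and no miRNA row passed, against 0.0446% of all rows it tested. It was also lost without control 1 (adjusted p = 0.0637, DESeq2), control 2 (0.136) or Rx-Dicer 3 (0.0761), with changes of -0.55, -0.50 and -0.58. In bulk tissue fewer cells of a type and less RNA per cell cannot be told apart.

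The Mir9-3 hairpin (chromosome 7, 79505264 to 79505353) lies in an intron of Mir9-3hg, so its row does not count reads of the spliced transcript. It held 53.7, 55.0 and 33.8 normalised counts in controls and 42.0, 56.0 and 34.2 in the Rx-Dicer samples, and the groups overlapped. Its change was -0.11 ± 0.40 (SE, adjusted p = 0.972, DESeq2), which differs from that of the host by 0.50 on the log2 scale with a within-group SD of 0.23. Per 1000 reads of the host, hairpin reads numbered 11.1, 10.8 and 9.64 in controls and 14.1, 18.5 and 12.1 in the Rx-Dicer samples, the latter all higher; the difference itself was not tested. The other miR-9 hosts were lower on average, and their groups overlapped. Gm3764, whose intron holds Mir9-1, had 9091, 11492 and 4882 counts in controls and 8287, 5067 and 6912 in the Rx-Dicer samples, a change of -0.33 ± 0.26 (adjusted p = 0.688, DESeq2). C130071C03Rik, with Mir9-2 in an exon, had 10901, 10492 and 7504 against 7365, 7554 and 9900, a change of -0.22 ± 0.17 (adjusted p = 0.700). The Mir9-1 hairpin itself had a change of -0.37 ± 0.41 (adjusted p = 0.838), and Mir3093, in the same host, of -0.03 ± 0.43.

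Hosts of the other neural miRNAs were not called. Mir124-2hg held 2539, 2382 and 2289 normalised counts in controls and 1562, 3146 and 1837 in the Rx-Dicer samples. The Rx-Dicer values lay on both sides of a narrow control range. Its change was -0.14 ± 0.22 (adjusted p = 0.905, DESeq2), and without Rx-Dicer 2 it was -0.50 and called, at an adjusted p of 0.00759. Mir124a-1hg ranged from 511 to 722 in controls and from 289 to 1137 in Rx-Dicer samples, with the highest value again in Rx-Dicer 2. The annotated span of Mir181a-1hg holds miR-181b-5p of Mir181b-1 but starts after miR-181a-5p of Mir181a-1. This row held 35.4, 34.6 and 35.7 in controls and 42.9, 67.2 and 51.3 in the Rx-Dicer samples. Its groups did not overlap, but the change of 0.61 ± 0.38 was not called (adjusted p = 0.560). Mir7-1, which lies in an intron of Hnrnpk and encodes miR-7a, gave a change of -0.01 ± 0.39.

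Mir135a-2 lies in an intron of Rmst, a long non-coding RNA of neural progenitors. It held 114, 65.2 and 29.1 normalised counts in controls and 193.8, 94.8 and 106.5 in the Rx-Dicer samples. Both Rx-Dicer 2 and 3 fell between control 1 and control 2, and Rx-Dicer 1 was highest. The change was 0.94 ± 0.44 (unadjusted p = 0.0344, adjusted p = 0.316, DESeq2). Rmst itself stood at 1108, 302 and 187 in controls and at 980, 782 and 830 in Rx-Dicer samples, so control 1 lay above all Rx-Dicer samples and the other controls below them. The change of Rmst was 0.70 ± 0.75 (adjusted p = 0.826), and without control 1 it was 1.82, at an adjusted p of 3.56e-11. Mir135a-1, on chromosome 9 with the same mature sequence, had a change of 0.24 ± 0.49. Mir219a-1, of a miRNA known for oligodendrocyte differentiation, reached 1.04 ± 0.69 (adjusted p = 0.592) on 107 reads in all. Over the neural group 10 of 12 rows were tested, and 0 were called higher and 1 lower, against 1.75% and 1.18% of all tested rows. Markers of hypothalamus and eye, 8 genes, summed to 41.1 to 59.8 CPM in controls and to 90.7 to 101 CPM in Rx-Dicer samples. DESeq2 tested 6 of these genes and called only Vax1, which was higher. The part of these markers in the neural rows was not tested.

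**Figure D3:**
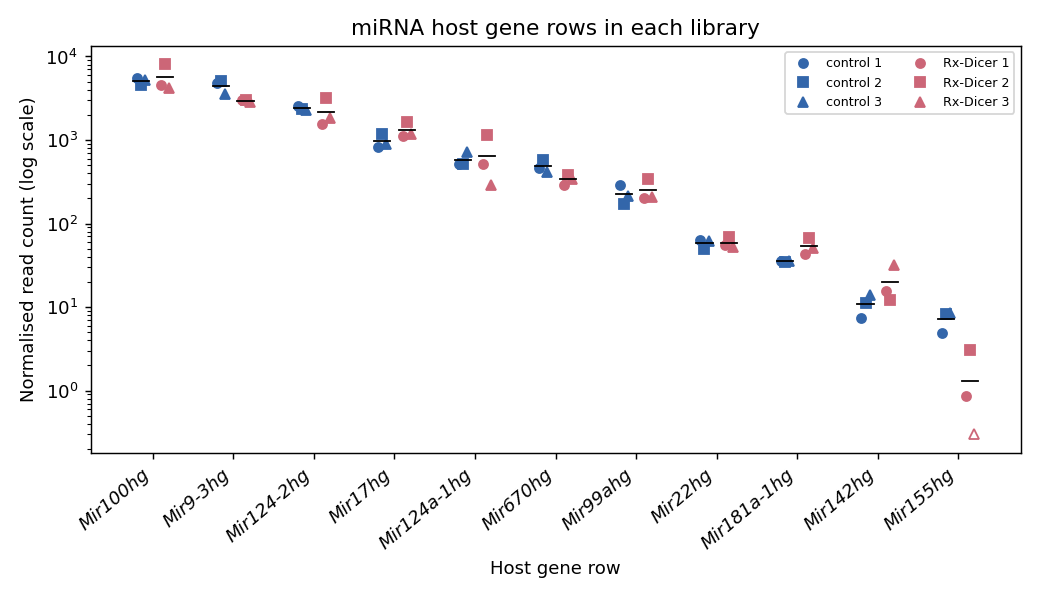
Normalised read count (log scale) of the 11 host gene rows in each library; bars are group means, blue is control and red Rx-Dicer, and the open symbol marks a count of 0 drawn at 0.3. Rx-Dicer values were all below the controls for Mir9-3hg, Mir670hg and Mir155hg and all above for Mir181a-1hg. Mir155hg had 21 raw reads in controls and 4 in Rx-Dicer samples, so it passed the minimum through its controls.

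Mir17hg (ENSMUSG00000089726, chromosome 14, 115042879 to 115046727, plus strand) carries all hairpins of the miR-17-92 cluster in its exons. It held 828, 1186 and 895 normalised counts in controls and 1122, 1639 and 1192 in the Rx-Dicer samples. Control 2 lay among the lower Rx-Dicer values, so the groups overlapped. The means were 970 ± 190 and 1318 ± 281, a change of 0.44 ± 0.19 (unadjusted p = 0.0216, adjusted p = 0.246, DESeq2). Mir92b, the other member of that group, had 26 reads in controls and 19 in Rx-Dicer samples.

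Mir670hg (chromosome 2, 94160636 to 94264918, minus strand) held 459, 576 and 412 normalised counts in controls and 286, 384 and 341 in the Rx-Dicer samples. All Rx-Dicer values were lower, but the change of -0.52 ± 0.20 missed the threshold (unadjusted p = 0.00794, adjusted p = 0.142, DESeq2). Over all 92 rows the groups failed to overlap in 8 (8.70%), with Rx-Dicer above in 5 and below in 3. Among the 20889 gene rows of the same minimum, 17.8% did so, 8.4% with Rx-Dicer above and 9.39% below. Mir763, Mir1931 and Mir1188 held 8, 11 and 4 raw counts in controls against 33, 23 and 22 in Rx-Dicer samples. Mir155hg held 21 in controls against 4. Each of these rows passed the minimum through its higher group alone, so their separation was in part selected by the minimum.

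Rows of the let-7, miR-99/100 and miR-125 clusters gave no call. Mir100hg, a long host, held 5488, 4537 and 5269 normalised counts in controls and 4543, 8031 and 4237 in the Rx-Dicer samples. The value of Rx-Dicer 2 was far above all others. The change was 0.14 ± 0.21 (adjusted p = 0.906, DESeq2), and -0.21 without Rx-Dicer 2. Mir99ahg, the host of Mir99a, Mirlet7c-1 and Mir125b-2, had 291, 173 and 214.2 against 202, 344 and 210, a change of 0.16 ± 0.27 (adjusted p = 0.921). Both hosts were thus highest in Rx-Dicer 2. Its share of 13.2% of reads outside annotated exons was not tested for a part in these values. The hairpins Mirlet7e, Mir99b and Mir99a had 31, 31 and 21 reads over all libraries and were not tested.

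Since most let-7 hairpins could not be counted, their hosts were examined as well, chosen from the annotation after the values had been seen. The host of Mirlet7a-1, Mirlet7d and Mirlet7f-1, 6720427I07Rik, held 141.7, 158 and 123 normalised counts in controls and 178, 213.95 and 170 in the Rx-Dicer samples. All Rx-Dicer values were higher, and the change was 0.41 ± 0.23 (unadjusted p = 0.0690, adjusted p = 0.444, DESeq2). D630033A02Rik, with Mirlet7i in its exon, held 62.3, 65.2 and 51.7 against 78.9, 76.4 and 78.0, again without overlap, a change of 0.38 ± 0.30 (adjusted p = 0.702). The protein-coding hosts Spaca6 (Mirlet7e), Wdr82 (Mirlet7g) and Huwe1 (Mirlet7f-2 and Mir98) had changes of 0.14 ± 0.22, -0.02 ± 0.10 and 0.04 ± 0.14. Of the 8 let-7 host rows, Lncppara, the host of Mirlet7b and Mirlet7c-2, had too few reads for a test, and none of the others was called in either direction. For Wdr82 the 95% interval, -0.22 to 0.17, keeps the change small, while for 6720427I07Rik it reaches from -0.03 to 0.86.

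Genes of miRNA maturation form the surroundings of these transcripts. DESeq2 tested all 19 genes of the list that had a row and called 3, all higher. This is 15.8%, against 1.75% of all tested rows for higher calls. The list was chosen with earlier results of these data known, so that share is a description and not a test. They were Lin28a, which blocks let-7 maturation, at 2.63 ± 0.22, Trim71, a let-7 target, at 1.81 ± 0.25, and Lin28b at 0.92 ± 0.19. Ago2, an Argonaute protein, had a change of 0.44 ± 0.15 and an adjusted p of 0.0914. Drosha, Dgcr8 and Xpo5, which act before Dicer, had changes of 0.03 ± 0.10, 0.04 ± 0.12 and -0.02 ± 0.12. The median of the list was 0.04.

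The imprinted Dlk1-Dio3 region holds many miRNA hairpins, which are expressed from the maternal chromosome 12. Of its 60 named rows 8 were members, none of which was tested. Their long non-coding transcripts were higher in Rx-Dicer samples on average. Rian, the host of Mir370, Mir341 and Mir1188, held 6906, 6576 and 9328 normalised counts in controls and 9763, 15729 and 12217 in the Rx-Dicer samples, without overlap. Its change was 0.73 ± 0.19 (adjusted p = 0.0106, DESeq2). With edgeR the adjusted p was 0.205, and the call was lost without control 1 (adjusted p = 0.1005), control 2 (0.190), Rx-Dicer 2 (0.103) or Rx-Dicer 3 (0.0784). Meg3 had a change of 0.88 ± 0.41 (adjusted p = 0.304), which was called without control 3 (1.17, adjusted p = 0.00210) or Rx-Dicer 3 (1.07, 0.0211), and Mirg of 0.49 ± 0.22 (adjusted p = 0.255).

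In the same region Mir431, Mir433 and Mir434, all members, lie on the strand opposite to Rtl1, an imprinted gene expressed from the paternal chromosome. Pairing between these maternal miRNAs and the Rtl1 message is known to lead to its cleavage. The annotated Rtl1 transcript of 6358 bases holds the exact reverse complement of mature miRNAs of 6 hairpins, Mir127, Mir136, Mir431, Mir432, Mir433 and Mir434. All 6 lie wholly opposite an exon of Rtl1, so this match follows from their position. The strands that pair in full with Rtl1 include, with the seed in capitals:
miR-127-3p: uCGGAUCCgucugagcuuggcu
miR-136-5p: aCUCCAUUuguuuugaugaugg
miR-431-5p: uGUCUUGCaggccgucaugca
miR-433-3p: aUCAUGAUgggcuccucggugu
miR-434-3p: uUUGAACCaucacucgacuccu

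Rtl1 (ENSMUSG00000085925) held 13.4, 27.5 and 31.0 normalised counts in controls and 111, 108 and 127 in the Rx-Dicer samples. All Rx-Dicer values were far above all control values. The means were 24.0 ± 9.30 and 115 ± 10.5 (SD, n = 3), which is 4.75-fold and on the log2 scale 2.25 ± 0.37 (SE, adjusted p = 4.27e-07, DESeq2). With edgeR the adjusted p was 0.0719, and with DESeq2 the call held without each library in turn. The opposing hairpin rows had few reads: Mir433 had 6, 7 and 7 raw reads in controls and 10, 19 and 16 in the Rx-Dicer samples, too few for a test, and Mir431 and Mir434 overlapped between the genotypes. Strand was used in counting, so reads of the hairpins and of Rtl1 are kept apart. Of 44 gene rows with a named hairpin opposite an exon, 29 were tested and 2 called, Rtl1 and Ldlrad4 (1.11 ± 0.31), both higher. This is 6.90%, against 1.75% of all tested rows for higher calls. Rtl1 was singled out after its values had been seen.

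**Figure D4:**
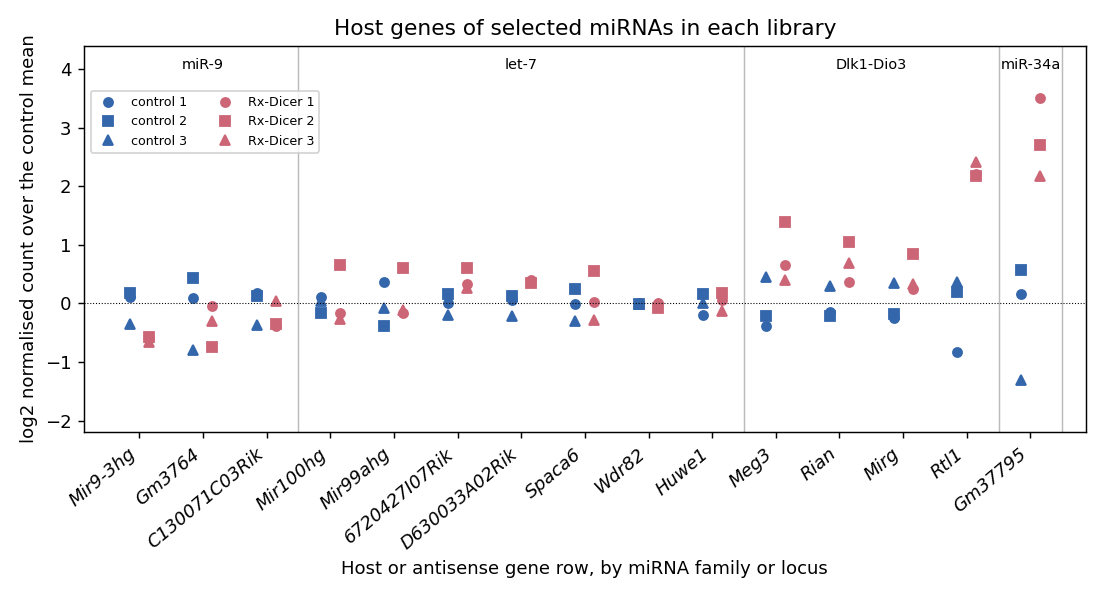
log2 of the normalised count over the control mean in each library (blue control, red Rx-Dicer) for hosts of miR-9, let-7 and the Dlk1-Dio3 region. Rtl1 lies on the strand opposite to hairpins of its region. Gm37795, under miR-34a, overlaps the Mir34a hairpin only in part and is not its host. Rx-Dicer values of Rtl1, Gm37795, Rian, 6720427I07Rik and D630033A02Rik are all above the controls, and those of Mir9-3hg all below.

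Rows of other cell types were few. Mir451a and Mir144, which lie together and act in red cells, had 23.2, 61.1 and 10.3 and 8.55, 25.5 and 11.3 normalised counts in controls, and 20.6, 14.3 and 33.3 and 6.86, 6.11 and 22.8 in Rx-Dicer samples. Both were highest in control 2 and Rx-Dicer 3. The same libraries had the most red cell marker RNA, a summed 23374 and 23223 CPM over 10 genes against 8810 to 11321 in the others, and their part in the hairpin values was not tested. Changes of these rows were -0.47 ± 0.66 and -0.34 ± 0.79. Mir142hg, the host of a blood cell miRNA, had a change of 0.87 ± 0.68 (adjusted p = 0.698, DESeq2), with 7.33, 11.2 and 14.1 counts against 15.4, 12.2 and 32.3. Microglial markers, 8 genes with Csf1r and Cx3cr1 called higher, summed to 27.0 to 33.0 CPM in controls and to 105, 31.9 and 63.2 in Rx-Dicer samples, and whether they bear on Mir142hg was not tested. Mir155hg, of an immune miRNA, had 4, 8 and 9 reads in controls and 1, 3 and 0 in the Rx-Dicer samples. It was not tested, and the 0 in Rx-Dicer 3 allows up to 0.0655 CPM, counting error only.

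Among the remaining members Mir6236, Mir703 and Mir5125 had the most reads. Mir6236 stood at 395, 284 and 209 in controls and 353, 376 and 471 in the Rx-Dicer samples, a change of 0.44 ± 0.24 (adjusted p = 0.444, DESeq2). Mir703 ranged from 198 to 358 in controls and from 174 to 360 in Rx-Dicer samples. Mir5125 lies in an intron of Srrm2 and had a change of 0.18 ± 0.29, against 0.05 ± 0.15 for Srrm2. Mir22hg, the host of miR-22, held 49.9 to 63.5 and 52.3 to 69.3 counts. The remaining Mir763 lies in an intron of Hmga2, a gene known as a let-7 target, whose own change was 0.06 ± 0.20. The Mir763 row had 2, 4 and 2 reads in controls and 8, 11 and 14 in the Rx-Dicer samples. Its groups did not overlap, but these reads were too few for a test, and the row passed the minimum only through the Rx-Dicer samples.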

How the data were processed

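Bulk RNA-seq libraries came from 3 embryonic samples per genotype, each deposited as 2 runs, and the 2 runs were summed (chi-square per degree of freedom between runs 1.09 to 1.34, against 14.6 to 21.0 between samples of a group). Each deposited file holds raw counts for every Ensembl gene. Per the authors' processing notes, reads were trimmed with Trim Galore 0.6.5, aligned to GRCm38.p6 with HISAT2 and counted with HTSeq 0.12.4; their methods give union mode on the reverse strand. Whether RNA was selected for poly(A) or depleted of ribosomal RNA is not given in the sources used here, and the small RNA libraries were not analysed here. Positions and strands came from GENCODE M21 on the same assembly (all 1193 named rows were found), and mature sequences from RefSeq. A host was a same-strand gene row that spans the hairpin.

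The test between genotypes was the Wald test of DESeq2 (version 1.42.0, under R 4.3.3) over all genes, with Benjamini-Hochberg adjustment, independent filtering, and calls at adjusted p under 0.05 and over 1.25-fold. Normalised counts were counts divided by DESeq2 size factors. Alternatives were edgeR's quasi-likelihood test (edgeR 4.0.16), other scalings, filters and thresholds, each run alone, the replicate number as a block, and each library left out. Total counts ran from 34471501 to 48373468, which makes the floor of 3 counts 0.0620 to 0.0870 CPM, counting error only. Members and gene lists were chosen with earlier results of these data known. Named rows were every call, the 5 higher and 5 lower tested rows of smallest p, the 12 of highest mean, tested hosts, let-7 cluster rows, and the rows nearest the minimum. Other rows were chosen after their values were seen. Deposited columns hold no fold change or p-value.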

Additional observations from a re-analysis of the deposited data

Results flagged for a closer look

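The 1101 miRNA-named rows that did not reach the minimum, which enter no comparison, summed to a median of 6.41 CPM in Rx-Dicer samples, above the highest control of 6.06 CPM. Control libraries summed to 6.06, 5.26 and 5.63 CPM, and the Rx-Dicer libraries to 6.41, 11.6 and 5.35 CPM. Rx-Dicer 2 stood far above the rest and Rx-Dicer 3 lay within the control range. Rx-Dicer 2 also had 13.2% of its reads outside annotated exons. Whether that share bears on the sum was not tested. With 3 samples a group, no search for samples far from the others of their group was made.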

How the results depend on the processing

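The single call among miRNA rows, Mir9-3hg (lower), was not stable. Called rows, and rows called lower, numbered 0 with edgeR's quasi-likelihood test, where 3 of 37 rows tested had an unadjusted p under 0.05, and 0 with a fold change over 2. Leaving out each library gave 0 to 2, with 0 without control 1, control 2 or Rx-Dicer 3, and 2 (Mir9-3hg and Mir124-2hg) without Rx-Dicer 2. The cause was not tested. With TMM factors, total counts as size factors, a low-count filter beforehand, an adjusted p under 0.1, no independent filtering, or either run alone the count was 1. No row was called higher under any of these settings. The rows tested numbered 12 to 39 over the fits without a library and 92 with no independent filtering. The change of Mir9-3hg ran from -0.75 to -0.50 over the fits without a library.

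Some uncalled rows turned sign, among them Mir451a and Lncppara with main changes of -0.47 and 0.34. With the replicate block Mir124a-1hg was at -0.041, and with the second run only Mir22hg was at -0.094 and Mir703 at 0.043. Over the fits without a library, the changes ranged from -0.21 to 0.30 for Mir100hg, -0.50 to 0.050 for Mir124-2hg, -0.52 to 0.51 for Mir124a-1hg, -0.11 to 0.095 for Mir22hg, -0.90 to 0.45 for Mir451a, -0.12 to 0.33 for Mir5125, -0.37 to 0.15 for Mir703, -0.13 to 0.38 for Mir99ahg, -0.12 to 0.32 for Spaca6, -0.041 to 0.0083 for Wdr82, -0.048 to 0.13 for Huwe1 and -0.19 to 1.24 for Lncppara.

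The replicate numbers come from the sample titles. Samples of the same number deviated from their group means with correlations of 0.19, 0.03 and -0.15 over 17770 genes. Pairs of different numbers ranged from -0.18 to 0.18. With deviations from means of 3 samples, these values cannot decide whether samples of a number share a litter or batch. With the replicate block 1 miRNA row was called, Mir9-3hg at -0.59, and 314 rows in all against 502 without it. Depth limits the hairpin rows most, since 55 of the 92 rows had under 50 reads in all.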

Other observations

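The p53-induced miRNAs had no row at the minimum, and their hairpins gave few reads (Mir34a 11, Mir34b 2 and Mir192 2 over all libraries). Mir34a overlaps in part the transcript Gm37795, so reads from the shared part could not be counted for either. Gm37795 held 20.8, 27.5 and 7.52 normalised counts in controls and 211.8, 121 and 83.7 in Rx-Dicer samples, all higher. On the log2 scale it changed by 2.91 ± 0.47 (SE, adjusted p = 4.39e-07, DESeq2), and with edgeR the adjusted p was 0.111. The DESeq2 call held without each library in turn. The gene was chosen after its values were seen. The mature miRNA, with its seed in capitals, is shown because its precursor overlaps a transcript that rose:
miR-34a-5p: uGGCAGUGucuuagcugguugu

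Among genes that host any miRNA-named hairpin, most of them protein-coding, 584 of 682 were tested with DESeq2 and 25 were called, 19 higher and 6 lower. This is 4.28%, against 2.93% of all tested rows. The higher hosts include Pou2f2 (1.35 ± 0.18), Zbtb20 (1.12 ± 0.26), Trpm3, whose intron holds Mir204 (1.44 ± 0.44), and Lpp, with Mir28a (0.65 ± 0.16). The lower ones include Gpc1, the host of Mir149 (-0.47 ± 0.14), Ncan (-0.59 ± 0.17) and Ctnnbip1 (-0.42 ± 0.11). No row of Mir204, Mir28a or Mir149 was among the members. Trpm3 and its Mir204 are known from the choroid plexus and eye primordium. The hypothalamus and eye markers had a higher sum in Rx-Dicer samples, with only Vax1 called. Whether they bear on Trpm3 was not tested.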
